A study of Homo sapiens with 5 samples.

Results

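The genes described here are the small RNA machinery of RH4 cells, made up of the Argonaute genes AGO1, AGO2, AGO3 and AGO4, the GW182 family genes TNRC6A, TNRC6B and TNRC6C, and the processing genes DROSHA, DICER1 and TARBP2. They were chosen by gene symbol, and all 10 were found among the 13822 genes of the expression table. RH4 is an established alveolar rhabdomyosarcoma cell line, a muscle-lineage tumour that carries markers of immature skeletal muscle. Poly-A+ RNA was sequenced from 3 si-SCR samples, transfected with a control siRNA, and 2 si-circVAMP3 samples, transfected with a siRNA against the back-splicing junction of the circular RNA circVAMP3. Both groups were RH4 cells given 30 nM siRNA with Dharmafect-1, a change of medium after 24 h and a harvest another 24 h later, so every sample held a transfected siRNA, and no untransfected cells were analysed here.

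In the microRNA pathway, DROSHA cuts the primary transcript in the nucleus and DICER1, together with its partner TARBP2, cuts the resulting hairpin in the cytoplasm. One strand of the duplex is then loaded into an Argonaute protein, which finds its targets mainly through the seed, the bases from position 2 to position 8 of the loaded strand. TNRC6 proteins bind Argonaute and bring in the deadenylases and decapping factors that shorten and degrade the target, and a transfected siRNA enters the same Argonaute proteins.

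The siRNA strand and its complement are shown because every sample of the si-circVAMP3 group received this duplex. In the strand as listed, the capitals mark the bases from the far side of the junction. In the opposite strand, which pairs with it over 19 bases, the capitals mark the seed. In the junction, lower case is the end of VAMP3 exon 4 and capitals are the start of exon 3.
si-circVAMP3, strand as listed: caucaucgGUGGUGGACAUuu
si-circVAMP3, opposite strand: aUGUCCACcaccgaugaug
VAMP3 exon 4 to exon 3 junction: tcatcatcatcatcgGTGGTGGACATAATG
On GRCh38 with GENCODE 44, exon 3 lies at chr1:7777160-7777318 and exon 4 at chr1:7778118-7778169 on the + strand, and the circle they form holds 211 bases. Of the paired bases, 8 match the end of exon 4 and 11 match the start of exon 3. The linear exons, joined in order, contain no full match to the 19 bases, and the longest run they share with them is 12 bases. The listed strand has the sense of VAMP3, so only the opposite strand can pair with the junction. The paper designed the siRNA against this junction and reported a strong downregulation of the circle. The opposite strand is thus the guide that this design calls for, although the sources used here do not name it. Whether the listed strand was also loaded was not tested.

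VAMP3 itself was read first as a check of the labels, with the limit that its value counts polyadenylated VAMP3 RNA and does not measure the circle. VAMP3 stood at 36.4, 35.4 and 37.4 FPKM (fragments scaled by exon length in kilobases and by library size) in the si-SCR samples and at 29.4 and 30.2 FPKM in the si-circVAMP3 samples. Both si-circVAMP3 values lay below all si-SCR values. Groups did not overlap, in either direction, in 58.5% of all genes tested, so this separation is only a weak check of the labels. The log2 fold change was -0.29 with a standard error of 0.04 (limma, Benjamini-Hochberg adjusted p = 0.00502), and the adjusted p was 0.0506 without si-circVAMP3 replicate 1.

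Of the 10 genes, 5 passed the test between the groups, with AGO1, AGO2 and TNRC6B lower and DICER1 and TARBP2 higher in si-circVAMP3 cells. Over all 12245 genes tested, 3701 passed (30.2%), with 1936 lower (15.8%) and 1765 higher (14.4%), so a large share of the transcriptome differed between the groups. Without si-circVAMP3 replicate 1, 1 of the 10 and 1321 of all genes passed, without replicate 2, 2 and 1283, and without si-SCR replicate 2, 3 and 2171. All 10 genes passed the filter of a mean of at least 0.5 FPKM, and in all 10 the groups did not overlap, which was the case for 7159 of the genes tested (58.5%). The median log2 fold change was -0.22 over the 10 genes and 0.01 over all genes tested. AGO1 had the largest change of the 10, and 3.96% of all genes tested had a log2 fold change as low or lower.

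**Figure D1:**
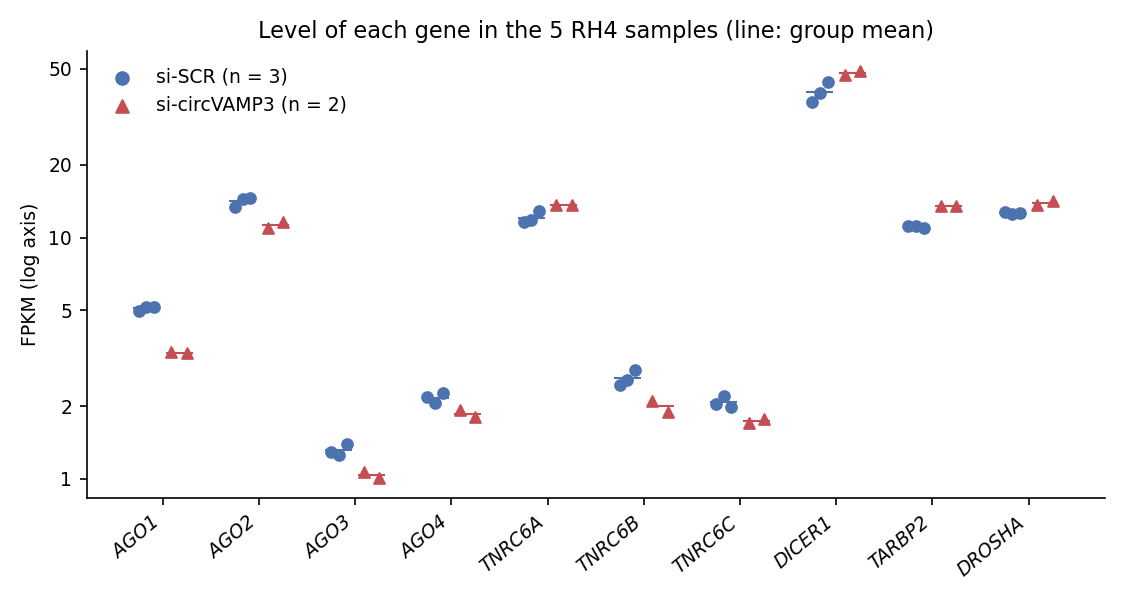
FPKM of each gene (log axis) in the 3 si-SCR samples (circles) and the 2 si-circVAMP3 samples (triangles), with lines at the group means. The 6 genes AGO1, AGO2, AGO3, AGO4, TNRC6B and TNRC6C lie lower in both si-circVAMP3 samples, and TNRC6A, DICER1, TARBP2 and DROSHA lie higher.

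FPKM is scaled by gene length, so levels can be set side by side. DICER1 was the most abundant of the 10 with a mean of 43.3 FPKM over the 5 samples, which placed it above 93.2% of the genes in the table. DROSHA, AGO2, TNRC6A and TARBP2 formed a middle tier with means of 13.1, 13.0, 12.8 and 12.1 FPKM. AGO1 followed at 4.39 FPKM, close to the median gene of the table (4.78 FPKM), and TNRC6B, AGO4, TNRC6C and AGO3 were low, with means of 2.37, 2.05, 1.94 and 1.20 FPKM. From DICER1 to AGO3 the range was 36.0-fold.

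The order of these levels differed between the groups. In si-SCR cells AGO2 came next after DICER1, and its range of 13.4 to 14.6 FPKM did not reach those of DROSHA (12.5 to 12.7) or TARBP2 (10.9 to 11.2). In si-circVAMP3 cells AGO2 (11.0 to 11.6 FPKM) lay below DROSHA, TNRC6A and TARBP2. The neighbours DROSHA and TNRC6A overlapped in both groups, AGO4 and TNRC6C overlapped in si-SCR cells, and TNRC6B and AGO4 overlapped in si-circVAMP3 cells. The other neighbours in the order were apart in these samples.

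All 4 Argonaute genes were lower in both si-circVAMP3 samples, and AGO1 and AGO2 passed the test. Of all genes tested, 58.5% had groups that did not overlap, in either direction, and 15.8% passed as lower. AGO1, a small RNA carrier that silences without cutting its target efficiently, stood at 4.98, 5.14 and 5.17 FPKM in si-SCR cells and at 3.36 and 3.31 FPKM in si-circVAMP3 cells. The samples within each group lay close together, and the groups were far apart. The mean was 5.10 ± 0.10 FPKM (SD, n = 3) against 3.34 ± 0.034 FPKM (SD, n = 2), or 34.5% lower. The log2 fold change was -0.60 with a standard error of 0.06 (limma, Benjamini-Hochberg adjusted p = 0.0015), and AGO1 passed under each of the 15 alternative settings that were fitted, with adjusted p from 9.36e-05 to 0.022.

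AGO2, the Argonaute best known for cutting fully paired targets, stood at 13.4, 14.4 and 14.6 FPKM in si-SCR cells. In si-circVAMP3 cells it stood at 11.0 and 11.6 FPKM, below every si-SCR sample. The difference was 20.3%, with a log2 fold change of -0.32 and a standard error of 0.06 (limma, Benjamini-Hochberg adjusted p = 0.00856). Without si-circVAMP3 replicate 1 the log2 fold change was -0.29 and the adjusted p was 0.0728.

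AGO3 and AGO4 are the less abundant Argonautes of these cells, and neither passed the test. AGO3 stood at 1.29, 1.26 and 1.39 FPKM in si-SCR cells and at 1.07 and 1.01 FPKM in si-circVAMP3 cells. Its log2 fold change was -0.31 with a standard error of 0.10 (limma, Benjamini-Hochberg adjusted p = 0.0632), with a wider error than for AGO2. With a pseudocount of 1 the log2 fold change of AGO3 was -0.18 (adjusted p = 0.061). AGO3 passed without the trend of variance on level (adjusted p = 0.0238) and in a fit on recovered reads (adjusted p = 0.00957). AGO4 stood at 2.19, 2.07 and 2.26 FPKM against 1.93 and 1.80 FPKM, with a log2 fold change of -0.21 and a 95% interval from -0.42 to 0.00 (limma, Benjamini-Hochberg adjusted p = 0.118).

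Summed over the Argonaute genes, the level was 21.9, 22.9 and 23.4 FPKM in si-SCR cells and 17.3 and 17.7 FPKM in si-circVAMP3 cells. The sum was thus 22.9% lower, with the groups apart (exact permutation test, two-sided p = 0.1). With 3 against 2 samples there are 10 ways to place the groups, and 0.1 is the smallest p that this test can give. AGO2 made up 61.3%, 63.0% and 62.4% of the sum in si-SCR cells and 63.3% and 65.4% in si-circVAMP3 cells, a difference of 2.11 percentage points (exact permutation test, p = 0.1). This difference was 1.09 points without si-circVAMP3 replicate 2, so its size rests largely on that sample. The share of AGO1 was lower, at 22.8%, 22.5% and 22.0% against 19.4% and 18.7% (exact permutation test, p = 0.1).

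**Figure D2:**
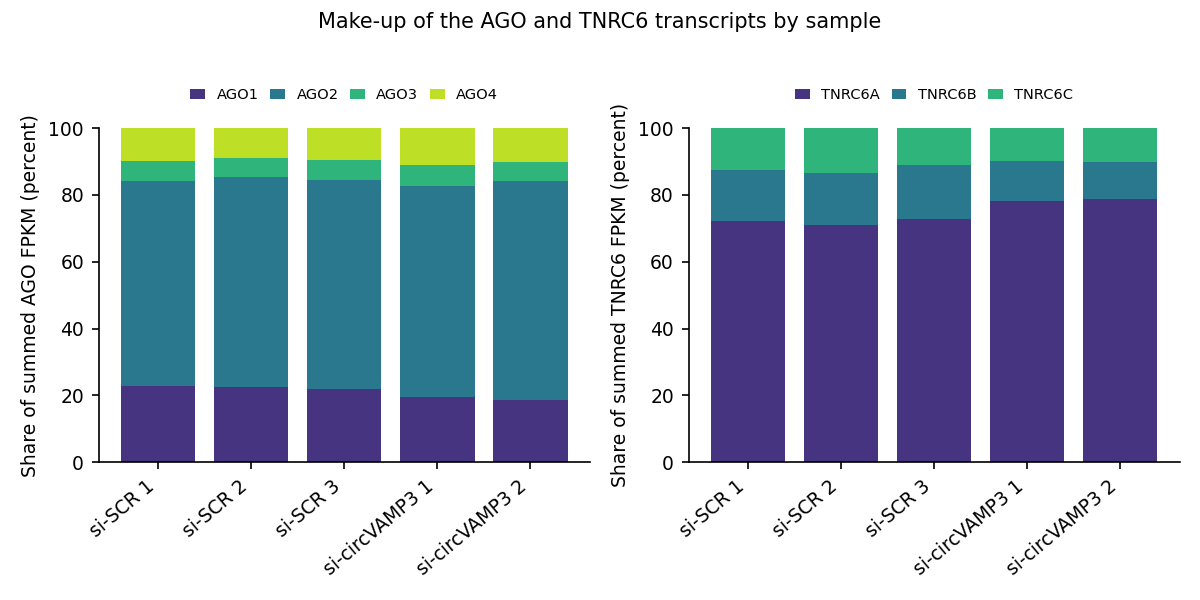
Share of each gene in the summed FPKM of AGO1 to AGO4 (left) and of TNRC6A to TNRC6C (right), in percent, for each of the 5 samples. AGO2 holds over 60% of the Argonaute sum in all 5 samples, and TNRC6A holds 71.1 to 72.9% of the TNRC6 sum in si-SCR cells and 78.2 and 78.9% in si-circVAMP3 cells.

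AGO4, AGO1 and AGO3 lie one after the other on the + strand of chromosome 1, at chr1:35808016-35857890, chr1:35869808-35930532 and chr1:35930718-36072500 (GRCh38, GENCODE 44). The stretch spans 264.5 kb, with 11.9 kb between AGO4 and AGO1 and 185 bases between AGO1 and AGO3, where each span covers all annotated transcripts of a gene. Of the 3 tested genes on either side, 1 passed, in the other direction, where 30.2% of all genes tested passed. PSMB2, a proteasome subunit gene, was higher by 0.34 on the log2 scale with a standard error of 0.05 (limma, Benjamini-Hochberg adjusted p = 0.00354), and C1orf216, CLSPN, ADPRS, COL8A2 and TRAPPC3 had log2 fold changes of 0.13, 0.13, 0.10, 0.30 and -0.13 and did not pass.

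The AGO1 promoter is shown because AGO1 had the largest change of the 10 genes. The window runs from 250 bases before to 50 bases after the RefSeq start, at chr1:35882959-35883258 on the + strand (GRCh38.p14), and capitals mark the motifs found. This start is that of the canonical AGO1 transcript and lies 13.4 kb inside the span given above, 25.3 kb from the end of AGO4. The start used for AGO3 lies 387 bases inside its span, and that of AGO4 is the first base of its span.
AGO1 promoter: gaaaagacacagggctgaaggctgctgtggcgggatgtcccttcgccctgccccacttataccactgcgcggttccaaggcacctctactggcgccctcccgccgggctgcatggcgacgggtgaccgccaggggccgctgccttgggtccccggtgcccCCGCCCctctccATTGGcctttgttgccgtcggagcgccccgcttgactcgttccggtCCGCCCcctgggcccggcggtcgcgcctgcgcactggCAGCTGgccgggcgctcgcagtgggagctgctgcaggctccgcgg
Searched on both strands were the GC box GGGCGG, the CCAAT box, the TATA box TATAAA, the E-box CACGTG and the muscle-type E-box CAGCTG, and none of these overlap in this window. AGO1 held 2 GC boxes, 1 CCAAT box and 1 CAGCTG. The AGO3 window held 2 GC boxes and no other motif, and the AGO4 window held none of the 5 motifs. Over 35116 promoters of the same length, 45.0% held a GC box, 34.6% a CCAAT box, 17.9% CAGCTG, 11.5% TATAAA and 7.3% CACGTG. The GC content was 72.3% for AGO1, 80.0% for AGO3 and 69.0% for AGO4, against a median of 58.7%.

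The TNRC6 genes did not move as a family. TNRC6B, which like its relatives couples Argonaute to the deadenylases, stood at 2.46, 2.58 and 2.83 FPKM in si-SCR cells and at 2.11 and 1.89 FPKM in si-circVAMP3 cells. Both si-circVAMP3 values were below all si-SCR values, though the spread within each group was wider than for AGO1. The log2 fold change was -0.37 with a standard error of 0.10 (limma, Benjamini-Hochberg adjusted p = 0.0293). The call was lost without si-SCR replicate 2 (adjusted p = 0.0799), without si-circVAMP3 replicate 1 (adjusted p = 0.0763) or replicate 2 (adjusted p = 0.174), and with a replicate block (adjusted p = 0.0758).

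TNRC6A, the most abundant of the family, lay in the other direction. It stood at 11.6, 11.8 and 12.9 FPKM in si-SCR cells and at 13.7 FPKM in both si-circVAMP3 samples. The groups were apart, and the log2 fold change of 0.18 with a standard error of 0.06 did not pass (limma, Benjamini-Hochberg adjusted p = 0.0662). TNRC6A passed with sample quality weights (adjusted p = 0.0123), with the replicate block (adjusted p = 0.0362), without si-SCR replicate 3 (adjusted p = 0.0141) and in the fit on recovered reads (adjusted p = 0.0312).

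TNRC6C stood at 2.04, 2.21 and 1.98 FPKM in si-SCR cells and at 1.71 and 1.77 FPKM in si-circVAMP3 cells. Its log2 fold change was -0.24 with a standard error of 0.09 (limma, Benjamini-Hochberg adjusted p = 0.0857). TNRC6C passed without the trend (adjusted p = 0.0489), with sample quality weights (adjusted p = 0.0258) and in the fit on recovered reads (adjusted p = 0.0428).

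The summed TNRC6 level was 16.1, 16.6 and 17.7 FPKM in si-SCR cells and 17.5 and 17.4 FPKM in si-circVAMP3 cells, and these groups overlapped (exact permutation test, p = 0.4). Within that sum the make-up differed. TNRC6B held 15.3%, 15.6% and 16.0% of the sum in si-SCR cells and 12.1% and 10.9% in si-circVAMP3 cells, a difference of -4.13 percentage points (exact permutation test, p = 0.1). TNRC6A held 72.1%, 71.1% and 72.9% against 78.2% and 78.9% (exact permutation test, p = 0.1).

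The 3 processing genes were all higher in both si-circVAMP3 samples, and DICER1 and TARBP2 passed the test. Groups did not overlap, in either direction, in 58.5% of all genes tested, and 14.4% passed as higher. DICER1, the cytoplasmic enzyme that cuts hairpins to mature size, stood at 36.5, 39.8 and 44.2 FPKM in si-SCR cells and at 47.1 and 48.9 FPKM in si-circVAMP3 cells. The si-SCR samples were spread widely, and the highest of them came near the si-circVAMP3 values. The mean was 40.1 ± 3.9 FPKM (SD, n = 3) against 48.0 ± 1.3 FPKM (SD, n = 2), and the log2 fold change was 0.26 with a standard error of 0.08 (limma, Benjamini-Hochberg adjusted p = 0.0473). DICER1 lay close to the threshold and did not pass with quantile normalization (adjusted p = 0.0659), without the trend (adjusted p = 0.0891), without si-SCR replicate 1 (adjusted p = 0.0732) or replicate 2 (adjusted p = 0.12), or without si-circVAMP3 replicate 1 (adjusted p = 0.151) or replicate 2 (adjusted p = 0.214).

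TARBP2, the RNA-binding partner of DICER1, had tight groups that lay well apart. It stood at 11.2, 11.2 and 10.9 FPKM in si-SCR cells and at 13.5 FPKM in both si-circVAMP3 samples. The log2 fold change was 0.28 with a standard error of 0.05 (limma, Benjamini-Hochberg adjusted p = 0.00702), and the adjusted p was 0.0556 without si-circVAMP3 replicate 1 and 0.0602 without replicate 2. DROSHA, the nuclear enzyme, stood at 12.7, 12.5 and 12.6 FPKM in si-SCR cells and at 13.6 and 14.1 FPKM in si-circVAMP3 cells. This was a small difference, with a log2 fold change of 0.13 and a standard error of 0.05 that did not pass (limma, Benjamini-Hochberg adjusted p = 0.0719). DROSHA passed with sample quality weights (adjusted p = 0.0305) and lay at the threshold in the fit on recovered reads (adjusted p = 0.05).

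**Figure D3:**
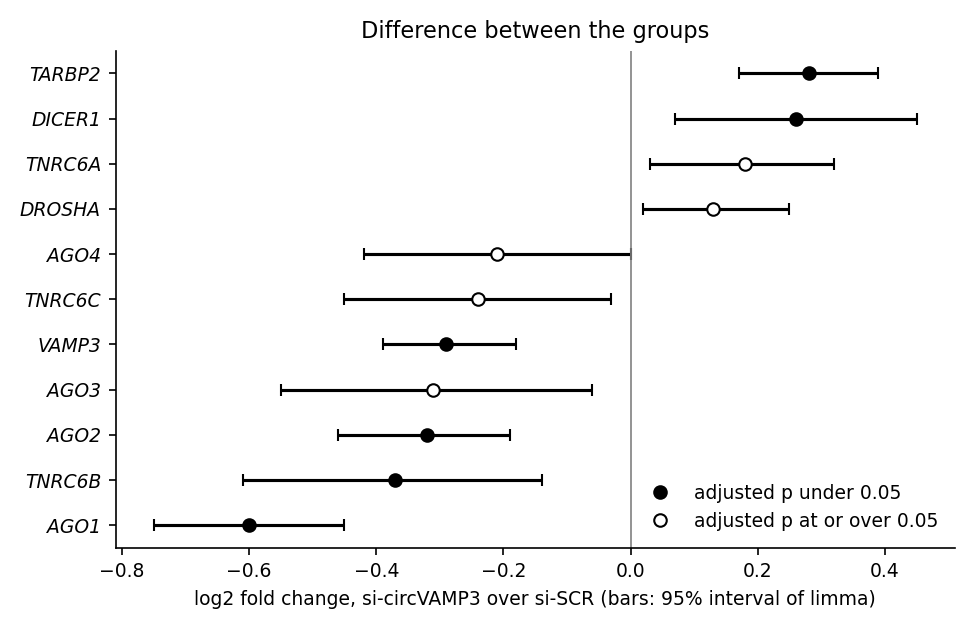
Log2 fold change of si-circVAMP3 over si-SCR for the 10 genes and VAMP3, with 95% intervals from limma. Filled points passed at an adjusted p under 0.05, and AGO1, at -0.60, lies farthest from 0.

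The match to the seed of the opposite siRNA strand, GTGGACA, was searched in 3' UTRs of GENCODE 44 canonical transcripts, 1 for each gene. AGO1 holds 1 match, AGO2 holds 1 and TNRC6B holds 2, and the canonical 3' UTRs of the other 7 genes hold none. AGO1, AGO2 and TNRC6B were also the 3 genes that passed with lower values, but this agreement depends on the setting. AGO3 and TNRC6C, with no match, also passed as lower without the trend and in the fit on recovered reads, and TNRC6C with sample quality weights. TNRC6B lost its call in 4 settings, but its log2 fold change there was -0.45 to -0.3, beside -0.37 in the main fit. AGO2 lost its call without si-circVAMP3 replicate 1, at -0.29 beside -0.32 in the main fit. AGO3 had a log2 fold change of -0.31 beside -0.32 for AGO2. The sites of AGO1 and TNRC6B are shown with 8 bases on each side, and capitals mark the match.
AGO1, chr1:35921176-35921198, + strand: tgtgtcctGTGGACAggctgggg
TNRC6B, chr22:40325064-40325086, + strand: gcacttgtGTGGACAtcccagtc
TNRC6B, chr22:40329078-40329100, + strand: tcctgtgaGTGGACAactaaagc
These 3' UTRs are long, at 10925 bases for AGO1, 11888 for AGO2 and 12567 for TNRC6B, and a long 3' UTR holds any given 7 bases more often. The longest of the 10, that of AGO3 with 16755 bases, holds no match. The other genes without a match have 3' UTRs of 283 bases (TARBP2) to 4285 bases (AGO4), and the 3' UTR of VAMP3 (1787 bases) holds none. The seed of the listed strand, matched by CGATGAT, was found once among the 10 genes, in AGO2.

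Of 10914 genes tested whose canonical transcript has a 3' UTR, 1257 (11.5%) contain GTGGACA. Their median log2 fold change was -0.12, with 33.6% passing as lower and 7.6% as higher, against a median of 0.03, with 13.9% lower and 16.7% higher, in the 9657 genes without it. The genes with a match have longer 3' UTRs, with a median of 2947 bases against 1240. Among the 120 genes with a 3' UTR over 10000 bases, the class of AGO1, AGO2, AGO3 and TNRC6B, 58 (48.3%) contain the match, and 22.4% of those passed as lower against 14.5% of the 62 without it. In shorter 3' UTRs the shares passing as lower, with against without the match, were 37.2% and 12.6% up to 2000 bases, 33.3% and 16.2% over 2000 and up to 5000 bases, and 30.8% and 17.9% over 5000 and up to 10000 bases. For CGATGAT, found in 198 genes (1.8%), the median was -0.02, with 20.2% lower and 12.1% higher, against a median of 0.02, with 16.1% lower and 15.7% higher, in the 10716 genes without it. The sequence of the si-SCR siRNA was not found and its seed was not scanned, so these shares are differences from cells that carry a siRNA of unknown seed. A match is a description of the sequence, and its part in the levels of AGO1, AGO2 and TNRC6B was not tested.

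**Figure D4:**
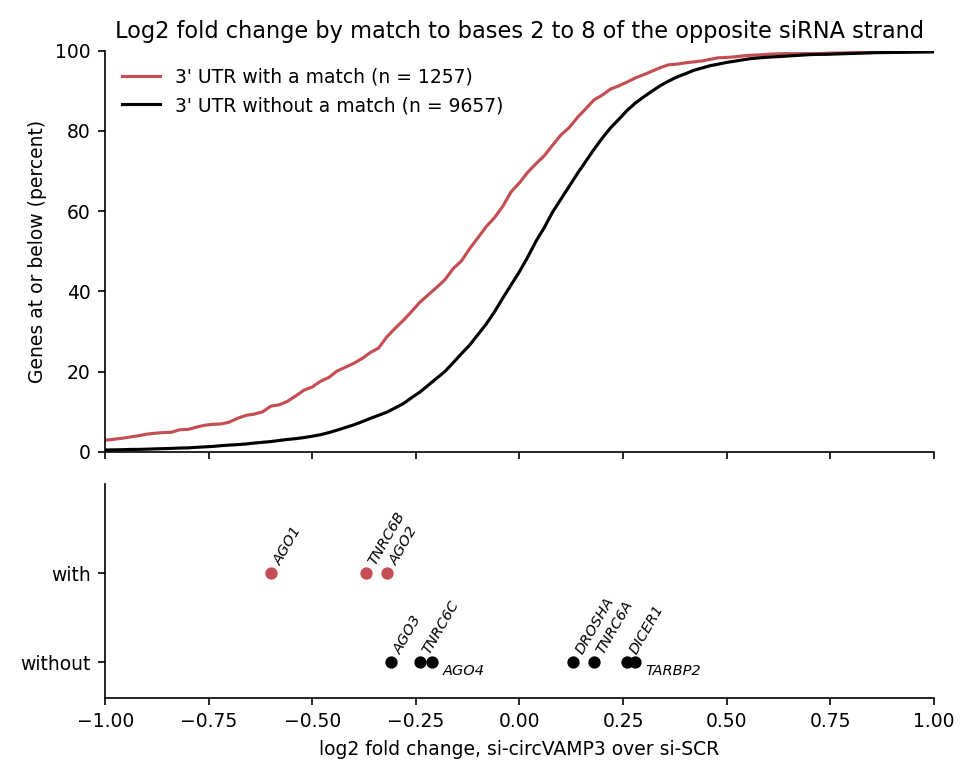
Top, cumulative percent of genes by log2 fold change of si-circVAMP3 over si-SCR, for 1257 genes with and 9657 genes without a canonical 3' UTR match to bases 2 to 8 of the opposite siRNA strand. Bottom, the log2 fold change of each of the 10 genes in the same classes, where AGO1, AGO2 and TNRC6B carry a match.

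Around these genes, 78 of 85 further genes of small RNA silencing and mRNA decay were tested, and 28 passed (35.9%, against 30.2% of all genes tested), 15 higher and 13 lower, with a median log2 fold change of 0.07. Each list with 4 or more calls held calls in both directions. The partners of DROSHA and the nuclear export genes were nearly level, with 1 of 7 passing (14.3%, against 30.2% of all genes tested). This was the helicase gene DDX5, at 0.13 (limma, Benjamini-Hochberg adjusted p = 0.041). RAN, the export GTPase and the most abundant of the list, had a log2 fold change of 0.06. Its value was 0.03 without si-SCR replicate 1 and -0.03 with quantile normalization. Of 11 DICER1 partners and Argonaute-loading chaperones, 3 were higher and 1 lower (36.4%). The HSP90 activator AHSA1 had a log2 fold change of 0.23, the HSP70-HSP90 adaptor STIP1 of 0.19 and the chaperone HSP90AB1, the most abundant of the list, of 0.14, while HSPA8 had -0.18, and -0.28 with quantile normalization.

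In the main fit, the deadenylases that TNRC6 proteins recruit had the largest share of calls of these lists. There 10 of 15 passed (66.7%, against 30.2% of all genes tested), 5 in each direction. This ranking was not tested and did not hold in every setting fitted. CNOT9, the subunit that TNRC6 proteins contact, stood at 31.3, 31.2 and 33.8 FPKM in si-SCR cells and at 44.6 and 44.2 FPKM in si-circVAMP3 cells, with a log2 fold change of 0.47 (limma, Benjamini-Hochberg adjusted p = 0.00159). CNOT10 and CNOT6 were higher by 0.29 and 0.25 on the log2 scale, whereas PAN2, CNOT2 and the scaffold CNOT1 had -0.35, -0.30 and -0.28. CNOT1 had the highest mean of the list over the 5 samples (38.3 FPKM, against 37.0 for CNOT9), but at 35.3 and 32.4 FPKM it lay below CNOT9 in both si-circVAMP3 samples.

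Among 13 tested cofactors of the silencing complex, 4 were higher and 2 lower (46.2%, against 30.2% of all genes tested). FXR2 had a log2 fold change of 0.41, SND1 of 0.20, ADAR of 0.19 and PABPC1, the most abundant, of 0.16, while LIMD1 had -0.28 and PABPC4 had -0.16. The value of PABPC1 was 0.01 with quantile normalization. Of 18 decapping and decay genes, 2 were higher and 4 lower (33.3%, near the 30.2% of all genes tested), with LSM7 at 0.35 and EIF4ENIF1 at 0.24 against LSM6 at -0.37, LSM5 at -0.30 and the exonuclease gene XRN1 at -0.27. LSM3, the most abundant, had 0.14 and did not pass. Its value was 0.22 without si-circVAMP3 replicate 1 and 0.06 without replicate 2, and it passed with sample quality weights (adjusted p = 0.0356). Of 14 tailing and turnover genes, TENT4A alone passed (7.14%, against 30.2% of all genes tested), with a log2 fold change of -0.56. XRN2 had 0.13, and 0.06 without si-circVAMP3 replicate 1 and 0.19 without replicate 2. XRN2 and TSN were the most abundant of this list, with nearly equal means over the 5 samples (47.8 and 47.5 FPKM), and XRN2 lay above TSN only in si-circVAMP3 replicate 1. TRIM71, LIN28A, LIN28B and PIWIL1 to PIWIL4 had no row in the table and were not analysed here. FXR2, CNOT9 and TENT4A passed in every setting fitted, and the other named pathway genes that passed lost the call in at least 1. Of the 78 genes, 3 passed without si-circVAMP3 replicate 1, 6 without replicate 2, 18 without si-SCR replicate 1, 12 without si-SCR replicate 2 and 32 without si-SCR replicate 3.

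**Figure D5:**
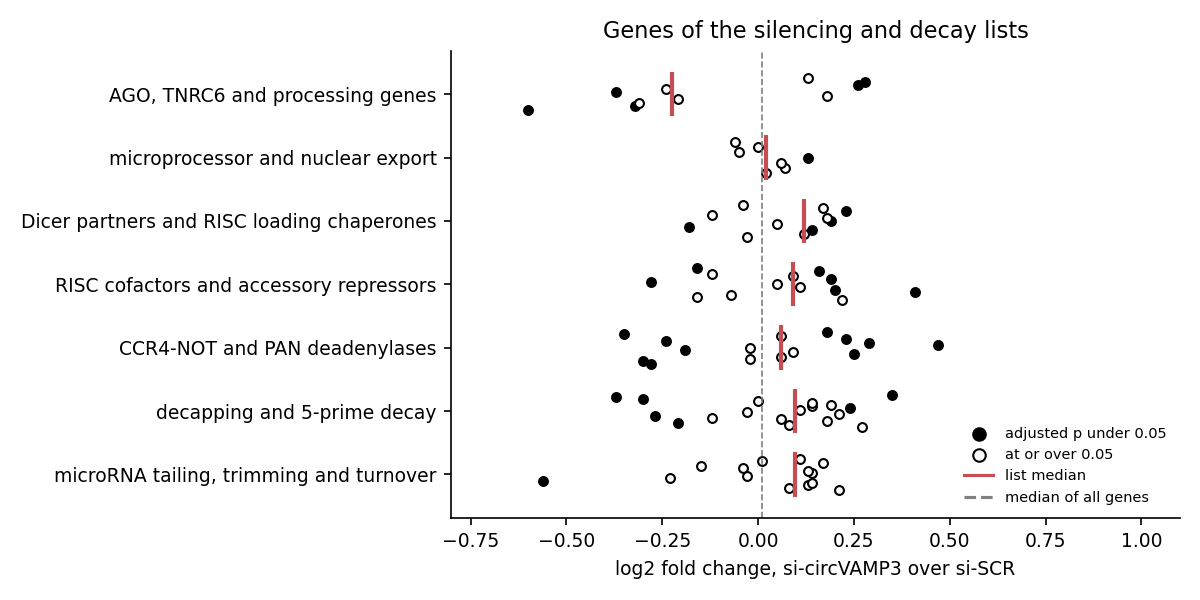
Log2 fold change of si-circVAMP3 over si-SCR for the 10 genes (top row) and for 78 further genes in 6 lists, with filled points at an adjusted p under 0.05, list medians as vertical bars and the median of all genes tested (0.01) as a dashed line. The 10 genes have a median of -0.22, and the list medians run from 0.02 to 0.12.

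The cell identity and depth behind these values were read from the same table. All 10 muscle-lineage markers were present, led by DES at 291, 291 and 249 FPKM in si-SCR cells and 266 and 248 FPKM in si-circVAMP3 cells. The myogenic factor MYOG was the 1 marker of the 10 that passed, against 30.2% of all genes tested. It stood at 175, 179 and 149 FPKM against 101 and 96.6 FPKM (log2 fold change -0.76, limma, Benjamini-Hochberg adjusted p = 0.00159). MYOD1 and MYMK went the other way, with log2 fold changes of 0.2 and 0.28 that did not pass. The rest of the list had negative values. DES had a log2 fold change of -0.11 and did not pass (limma, Benjamini-Hochberg adjusted p = 0.342). Without si-SCR replicate 3 it was -0.18 and passed (adjusted p = 0.0268). The DES value was -0.07 without si-SCR replicate 1 or replicate 2. It was -0.16 without si-circVAMP3 replicate 1 and -0.06 without replicate 2. The summed level of the list was 1030, 1020 and 873 FPKM against 837 and 852 FPKM. Markers of other cell types were near 0, with summed levels of at most 1.87 FPKM for fibroblast genes (led by PDGFRA), 0.651 FPKM for epithelial genes (KRT8) and 0.153 FPKM for endothelial genes (PECAM1), and no row for COL1A2, LUM, EPCAM, KRT18, CDH1, CDH5, KDR, PTPRC, CD3E, CD14 or CD68. KRT8 was higher in both si-circVAMP3 samples, at 0.651 and 0.58 FPKM against 0.316, 0.215 and 0.256 FPKM, and was below the filter. The reads recovered from the FPKM values summed to 26332967, 24946509 and 24835912 in si-SCR samples and to 18552661 and 28705009 in si-circVAMP3 samples, which were thus the shallowest and the deepest of the 5. The part of MYOG or KRT8 in the levels of the Argonaute, TNRC6 and processing genes was not tested.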

How the data were processed

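The authors deposited gene-level FPKM values of 5 samples (stranded poly-A+ libraries). Per the methods, the authors trimmed reads with Trimmomatic, aligned them to GRCh38 and Ensembl 99 with STAR 2.5.2b, counted them by strand with HTSeq, removed genes of low counts and scaled the rest with edgeR. The methods call the samples biological replicates. Here log2(FPKM + 0.1) of genes with a mean of at least 0.5 FPKM was compared with limma 3.58.1 in R 4.3.3 (2 group means, mean-variance trend, Benjamini-Hochberg over 12245 genes, call at an adjusted p under 0.05), so fold changes of low genes are understated. The test was also run on simulated data, which did not include changes as small as most of those reported here. Shares were compared with exact permutation tests. Symbols were found for 13783 of 13822 genes.

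Ratios of FPKM between samples gave whole reads for 13822 of 13822 genes (100.0%, relative tolerance 2e-12). Where the gene length differs from the annotated one, as in AGO1, TNRC6C, DICER1 and DROSHA, the reads are the smallest whole-number solution, so sums may be low. In the other 6 genes they ran from 266 to 5783 per sample. At first 96.8% of the genes had an even read count in si-circVAMP3 replicate 1, so its library ratio was divided by 2. This left 47.9% of the genes with an even count. limma-voom on these reads called 4113 genes.

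Members and lists were chosen with earlier results of these data known. Named genes are all members and VAMP3. Per list, up to 3 called genes with the largest positive and 3 with the largest negative change were named. So was the gene of the highest mean over the 5 samples. TSN was named beside XRN2 for its nearly equal mean. TSN, MYOG, MYOD1, MYMK and the neighbours of AGO1 were added after their values were seen. The read fit, the seed matches on both strands, the length classes, the 5 promoter motifs and the neighbours were also chosen after the data were seen. Fold changes and p-values of the study were not used.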

Additional observations from a re-analysis of the deposited data

How the results depend on the processing

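No member reversed its direction in any of the 15 alternative fits (150 values), and the median of all genes stayed between 0.00 and 0.02. The 3701 calls became 683 with a log2 fold limit of 0.58 as well, and 1283 to 3994 with 1 sample left out. The 5 member calls became 8 with sample quality weights, 9 with voom on recovered reads (chosen after seeing the data, with DROSHA at the threshold), 1 (AGO1) with the fold limit, and 1 to 6 with 1 sample left out. The 28 pathway calls became 18 without the trend, 0 with the fold limit, and 3 to 32 with 1 sample left out. At an unadjusted p under 0.05, 5218 genes passed. Leaving out either si-circVAMP3 sample leaves 1, assumed to vary like the others. The causes were not tested.

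The VAMP3 log2 fold change ranged from -0.31 to -0.27 with 1 sample left out. The AGO2 share difference ranged from 1.09 to 3.14 points and that of TNRC6B from -4.72 to -3.54. Replicate numbers 1 and 2 occur in both groups, but nothing says that they mark a shared batch, so they were not taken as pairs. The deviations from the group means had correlations of -0.128 and -0.034 between same-numbered samples. With 2 si-circVAMP3 samples, their deviations are mirror images of each other, so these correlations cannot decide whether a batch was shared. With a replicate block, 3154 genes, 5 members and 23 pathway genes passed, TNRC6B was lost and TNRC6A gained, and VAMP3 stood at -0.27 (limma, adjusted p = 0.0197). The block changed no other member's call.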
